A study of Homo sapiens with 6 samples.

Results

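CD82 and 9 related tetraspanins (CD9, CD37, CD53, CD63, CD81, CD151, TSPAN1, TSPAN4 and TSPAN8) were followed in MDA-MB-231 cells grown on glucose or on fructose. The members were chosen by gene symbol from the annotation of the array, and all 10 were measured, out of 18404 genes with a probe set of their own. A gene with several probe sets would have been represented by the one selected on the highest mean log2 intensity over the 6 arrays, but each of the 10 had 1 probe set, so no choice was needed. CD82 leads the set because its difference between the sugars was already known, and its values are therefore a description and carry no test.

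MDA-MB-231 is an established line of human breast cancer cells that lack hormone receptors and HER2 amplification. The control cells grew in DMEM with 25 mM glucose and the others in DMEM with 10 mM fructose, for 25 days in each case, and the labels call the first glycolytic and the second non-glycolytic. Each group had 3 arrays, each with total RNA of a separately adapted batch of cells harvested at about 70% confluency, 24 hours after a medium change. Sugar, concentration and lack of glucose changed together and cannot be told apart, and RNA of a whole culture does not show whether all cells or a part of them differed.

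Tetraspanins are small proteins that cross the membrane 4 times and gather integrins, proteases, growth factor receptors and one another into patches of the cell surface. CD82, also called KAI1, is known as a suppressor of metastasis that slows migration when it is restored in carcinoma cells. CD9, CD81 and CD63 are widely used markers of exosomes, and CD63 also sits in late endosomes and lysosomes. CD151 binds laminin-receptor integrins, and CD37 and CD53 belong mainly to blood cells.

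The sequence in front of CD82 is shown because CD82 was the member that differed. RefSeq (GRCh38.p14) lists 1 start for it in the promoter table used here, and the 250 bases before that start lie on the plus strand at chr11:44565413-44565662. Capitals mark the GC box, GGGCGG, the motif bound by SP1-type factors, searched on both strands.

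CD82: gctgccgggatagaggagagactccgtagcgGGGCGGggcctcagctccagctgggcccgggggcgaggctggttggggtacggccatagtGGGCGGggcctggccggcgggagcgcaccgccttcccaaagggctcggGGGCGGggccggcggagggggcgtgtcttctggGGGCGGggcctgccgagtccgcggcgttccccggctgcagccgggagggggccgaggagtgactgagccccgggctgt

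The stretch held 4 GC boxes and was 77.2% G and C, where the median of 35116 promoters of this length was 58%. A GC box was present in 42.6% of those promoters. None of the E-box CACGTG (6.34% of promoters), the AP-1 motif TGANTCA (6.57%) or the TATA box TATAAA (10.7%) was found in the CD82 stretch on either strand. RefSeq starts were at hand for 7 of the 10 genes, 23 in all. Counting the CD82 start, 14 of these starts, from 6 genes, had a GC box. These matches describe letters in a window and were not tested against expression.

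The deposited values are intensities per probe set, and tests were run on their log2. Over the 28230 tested probe sets the difference (fructose minus glucose) had a median of 0.02 and a median standard error of 0.095. A single probe set, that of TXNIP, passed an adjusted p of 0.05 with limma, which is a background of 0.00354%. In a principal component analysis fructose replicate 2 (5.67) lay between the other fructose arrays (17.9 and 19.3) and the glucose arrays (-14.8 to -13.5) on the first component, which held 28.8% of the variance. Where leaving out that array moved a printed difference of a member or list gene by over 1.5 times, its value without it is given too.

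Marker lists were read against the median tested probe set (5.01, log2), as a coarse guide only. Of 8 measured markers of the line, 7 were above it, VIM (11.5 in glucose), MSN, CD44, CAV1, AXL, PLAU and ZEB1, and SPARC (4.27) was below. Of 12 luminal markers, 8 were above it, KRT19 (10.8), KRT8 (9.61), KRT18 (8.48), EPCAM (7.94), XBP1 (7.91), SPDEF (6.80), ERBB2 (6.43) and GATA3 (6.38). The luminal receptor genes ESR1 (4.02) and PGR (2.63), with FOXA1 (4.49) and CDH1 (3.09), lay below. Of 13 measured leukocyte markers, 12 were below the median, among them PTPRC, the pan-leukocyte surface phosphatase, at 2.34. The exception was CD68 (10.6), a lysosomal glycoprotein that other cells also make. The summed intensity of this list was 1720 to 1809 in glucose and 1847 to 2065 in fructose, of which CD68 made up most. All but 1 of the 10 fibroblast markers were below the median.

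CD82 stood higher in fructose. Its intensity was 107, 108 and 115 on the glucose arrays and 162, 177 and 155 on the fructose arrays. The groups did not overlap, and fructose replicate 2, the array nearest to glucose over the whole transcriptome, had the highest CD82 value of all. The mean was 110 ± 4.57 (SD, n = 3) with glucose, and with fructose it was 165 ± 11.1 (SD, n = 3). On the log2 scale the difference was 0.58 (SE 0.08, 95% interval 0.40 to 0.76), or 1.49-fold with an interval of 1.32 to 1.70. These intervals do not allow for the choice of CD82 by its known difference, and they are not read as a test. The gap between the lowest fructose and the highest glucose array was 0.43, and the arrays within a sugar spanned at most 0.19. Without fructose replicate 2 the difference was 0.53.

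None of the 10 members passed the adjusted threshold over all probe sets, where the background was 0.00354%. This count differed between settings. When limma's variances followed the intensity and were estimated robustly, 473 probe sets passed (1.68% of those tested) and CD82 was the 1 member among them. When the dimmer part of the probe sets was left out, 299 of 14385 passed (2.08%), again with CD82 as the 1 member, of 8 tested. Nothing is concluded from these calls for CD82, since the gene was picked with its difference in view. By the simpler count of arrays, 1 of 10 members had all fructose arrays above all glucose arrays, against 11.4% of all tested probe sets, and 0 of 10 had all below, against 8.81%. In either direction the shares were 1 of 10 members and 20.2% of all probe sets.

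**Figure D1:**
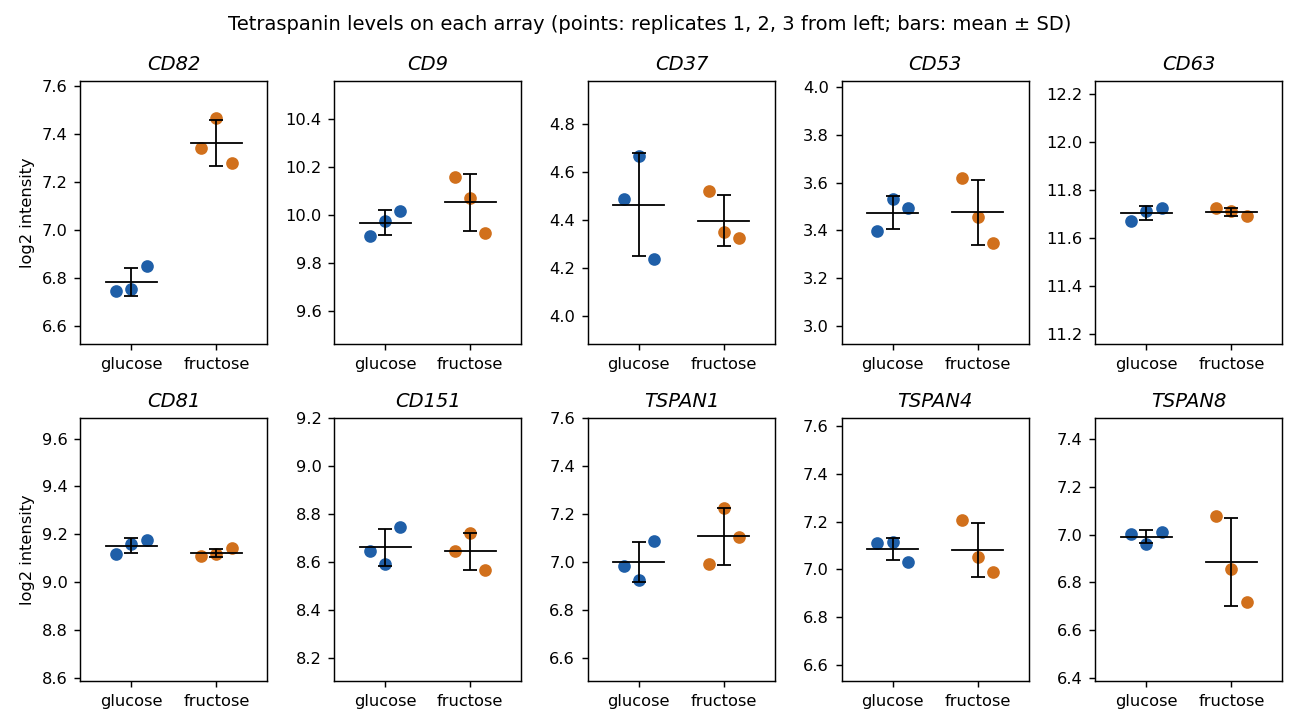
Log2 intensity of each of the 10 tetraspanins on the 3 glucose (blue) and 3 fructose (orange) arrays, with the mean and SD in black; every panel spans the same range of log2 units. CD82 is the panel in which the sugars part, by 0.58, and in the other 9 the points of the sugars overlap.

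The exosome tetraspanins CD63, CD81 and CD9 differed by at most 0.09 on the log2 scale. CD63 was very bright, with 3261, 3353 and 3390 in glucose and 3384, 3353 and 3306 in fructose. Its difference was 0.01 (SE 0.06, 95% interval -0.14 to 0.15), or 0.907 to 1.11 of the glucose level as a fold. Of the members, CD63 also had the narrowest spread over the 6 arrays, 0.056 on the log2 scale.

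CD81, which takes part in B cell receptor signalling and serves as a receptor for hepatitis C virus, had intensities of 556, 572 and 579 in glucose and 552, 556 and 565 in fructose. The groups overlapped, and the difference was -0.03 (SE 0.06, 95% interval -0.18 to 0.12). CD9, known for its part in the fusion of egg and sperm and in cell adhesion, measured 963, 1006 and 1035 in glucose and 1145, 1077 and 974 in fructose. Fructose replicates 1 and 2 lay above every glucose array and replicate 3 lay among them. The difference was 0.09 (95% interval -0.11 to 0.28), with 0.15 without fructose replicate 3 and 0.03 without fructose replicate 1.

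CD151, the integrin-bound member, read 401, 386 and 429 in glucose and 400, 422 and 379 in fructose. The difference of -0.02 (95% interval -0.20 to 0.16) was small beside the spread of 0.15 within either sugar, and it was -0.06 without fructose replicate 2. TSPAN4, known for its role in migrasomes, the vesicles left behind on the retraction fibres of migrating cells, read 138, 138 and 131 in glucose and 148, 133 and 127 in fructose. Its mean was 136 in both sugars (SD 4.41 in glucose and 10.8 in fructose, n = 3 each), and the log2 difference was -0.0025 (95% interval -0.19 to 0.19; 0.01 without fructose replicate 2). In the current gene table CD151 and TSPAN4 lie on chromosome 11 with a single protein-coding gene, POLR2L, between them, which differed by 0.08 (SE 0.07).

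TSPAN1 and TSPAN8, both of which are known from epithelial cells and carcinomas, differed in opposite directions and by little. TSPAN1 read 126, 122 and 136 in glucose and 127, 150 and 138 in fructose, a difference of 0.11 (95% interval -0.10 to 0.31) that was 0.05 without fructose replicate 2 and at most 0.17 with another array left out. TSPAN8 read 128, 125 and 129 in glucose and 135, 116 and 105 in fructose, a difference of -0.11 (95% interval -0.34 to 0.13). Its fructose arrays spanned 0.36 and its glucose arrays 0.046, so fructose replicate 1 was the highest of the 6 arrays and fructose replicate 3 the lowest. Leaving out fructose replicate 1 gave TSPAN8 a difference of -0.20, and leaving out fructose replicate 3 gave -0.02.

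The leukocyte tetraspanins CD37 and CD53 had dim probe sets. CD37 read 22.4, 25.4 and 18.9 in glucose and 22.9, 20.4 and 20.0 in fructose, and CD53 read 10.5, 11.5 and 11.3 in glucose and 12.3, 11.0 and 10.2 in fructose. These readings lay below the intensity that corresponds to the median tested probe set, 32.2, and no background level of the array was used to tell signal from noise. The differences were -0.07 for CD37 (95% interval -0.35 to 0.22) and 0.0011 for CD53 (95% interval -0.21 to 0.21). With an array left out they ran from -0.18 to 0.04 for CD37 (-0.04 without fructose replicate 2) and from -0.07 to 0.06 for CD53 (0.01 without fructose replicate 2).

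Across the 9 members other than CD82 the differences ran from -0.11 to 0.11, with 4 higher and 5 lower in fructose. Their smallest adjusted p over all probe sets was 0.65 (limma). Their 95% intervals reached from -0.35, the lower bound of CD37, to 0.31, the upper bound of TSPAN1, which is a 1.24-fold higher level. The median of all 10 was -0.00069, beside 0.02 over all tested probe sets.

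**Figure D2:**
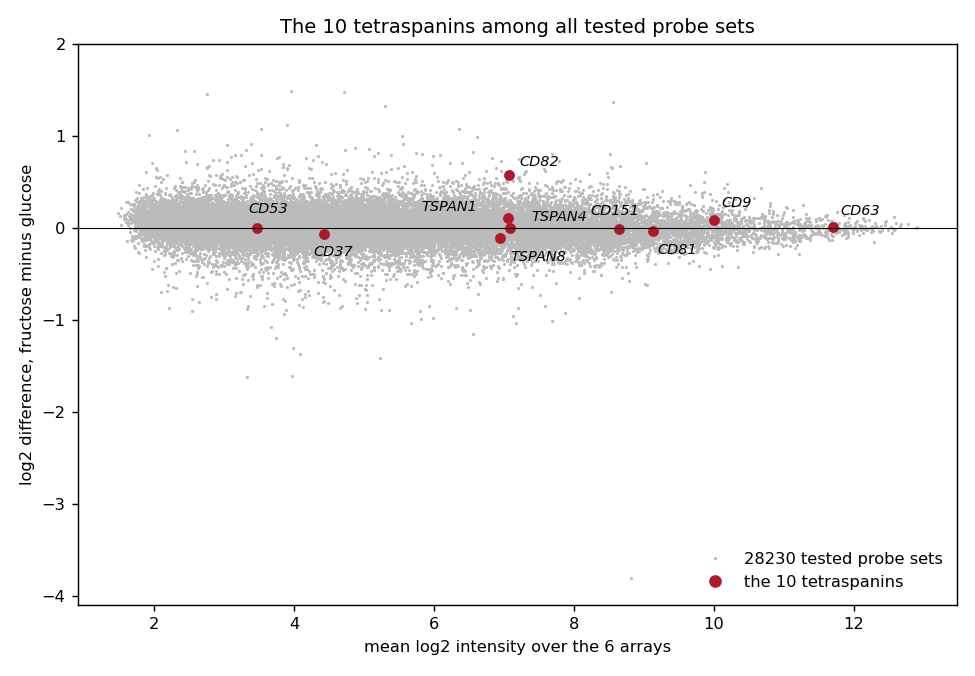
Difference between the sugars (log2, fructose minus glucose) against mean log2 intensity for 28230 probe sets (grey) and the 10 tetraspanins (red). CD82 lies at 0.58, the other 9 between -0.11 and 0.11, and the lone grey point near the bottom is TXNIP at -3.80.

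The rest of the family was taken as a list of 23 further tetraspanins, of which 22 were measured and 12 were brighter than the median probe set in at least 1 sugar. None of the 22 passed over all probe sets, and the median difference was 0.01, with 12 higher and 10 lower. No gene of this list had its fructose arrays all above glucose, and 2 had them all below, beside 11.4% and 8.81% of all probe sets. These 2 were TSPAN6, with 8.85, 8.91 and 8.99 in glucose and 8.75, 8.80 and 8.65 in fructose (log2; difference -0.18, SE 0.08), and TSPAN16, which was dim (3.24 in glucose; difference -0.28). ROM1, a structural protein of photoreceptor discs, differed by 0.27 from a glucose level of 5.03, and by 0.17 without fructose replicate 2.

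TSPAN15, which escorts the sheddase ADAM10 and steers its choice of substrate, had the lowest difference of the family, -0.33 (95% interval -0.71 to 0.04). Its log2 values were 6.43, 6.43 and 6.37 in glucose and 6.03, 6.44 and 5.76 in fructose, so fructose replicate 2 lay at the glucose level and the other 2 fructose arrays were lower. Without fructose replicate 2 the difference was -0.51. ADAM10 itself read 9.14, 9.30 and 9.15 in glucose and 9.03, 9.09 and 9.05 in fructose, a difference of -0.14 (SE 0.07) without overlap. TSPAN14, another escort of ADAM10, differed by -0.03, and TSPAN5 and TSPAN17, from the same subgroup, by -0.04 and 0.02. TSPAN10 and TSPAN33, also of this subgroup, were dim (4.60 and 3.49 in glucose) and each differed by 0.04. Without fructose replicate 2 these values were -0.09 for TSPAN14, -0.11 for TSPAN5 and -0.03 for TSPAN17, and 0.08 for both TSPAN10 and TSPAN33.

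**Figure D3:**
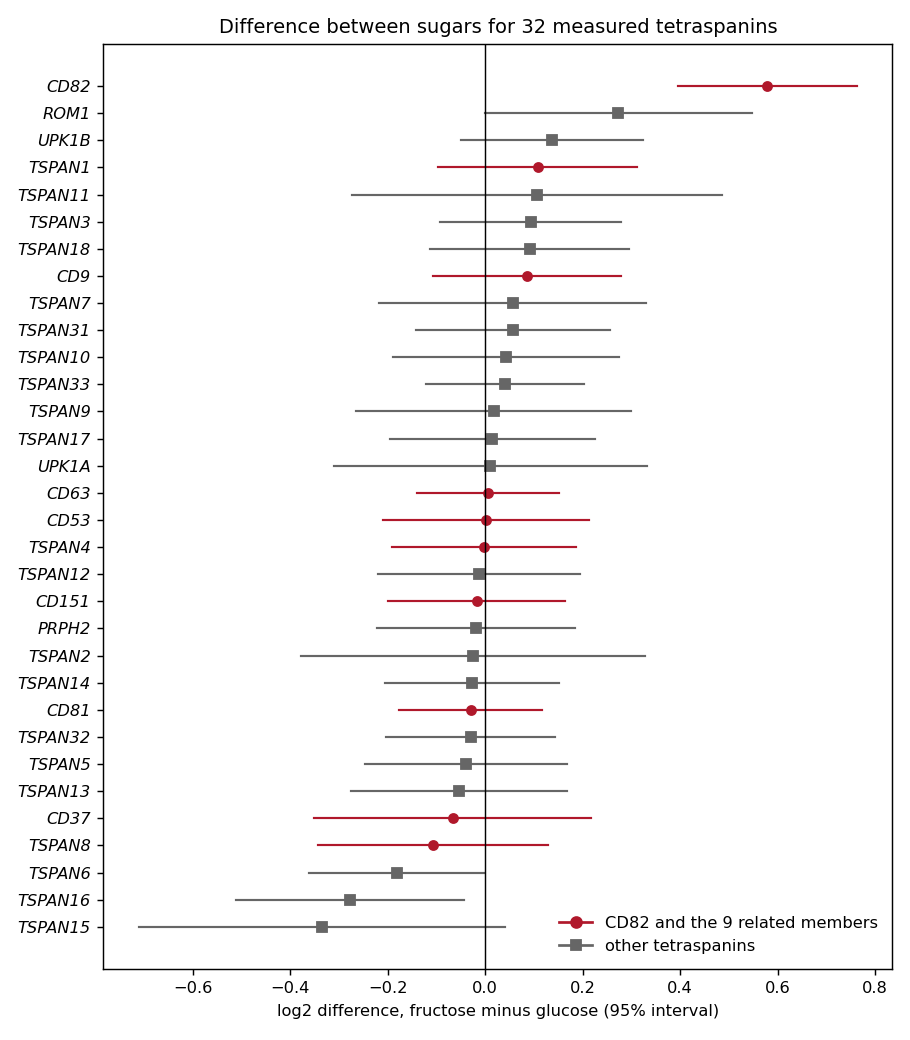
Log2 difference (fructose minus glucose) with its 95% interval for the 32 measured tetraspanins, in order of the difference; the 10 members are red circles and the 22 others grey squares. CD82 is at the top with 0.58, ROM1 next with 0.27, and TSPAN15 at the bottom with -0.33.

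Proteins that tetraspanins bind at the surface were taken as a list of 22, and all were measured. None passed, 14 were higher and 8 lower, the median difference was 0.03, and 4 lay above and 4 below glucose without overlap, beside 11.4% and 8.81% of all probe sets. The integrin subunit ITGA6, a partner of CD151, differed by -0.15 (SE 0.06). Other integrin subunits of the list differed by 0.01 (ITGA3), -0.07 (ITGB1) and 0.24 (ITGB4). Without fructose replicate 2 the values were -0.01 for ITGA3 and 0.12 for ITGB4. EPCAM, an adhesion molecule found with CD9 and TSPAN8 in carcinoma cells, read 7.94, 8.03 and 7.86 in glucose and 7.40, 7.65 and 7.36 in fructose (log2; difference -0.47, SE 0.10), and its dimmer second probe set differed by -0.18. EGFR, whose signalling CD82 is known to dampen, read 8.36, 8.50 and 8.38 in glucose and 8.60, 8.62 and 8.67 in fructose (difference 0.21, SE 0.07). The interferon-induced membrane protein IFITM1 differed by 0.27 and the surface protease MMP14 by 0.15.

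Factors reported to control CD82 or to act on its protein were taken as a list of 13, of which 11 were measured. None passed, and the median difference was 0.06, with 8 higher and 3 lower. The acetyltransferase KAT5 (Tip60), a co-activator at the CD82 promoter, read 7.34, 7.39 and 7.55 in glucose and 7.68, 7.75 and 7.62 in fructose (difference 0.26, SE 0.08). Its reported antagonists there were CTNNB1 (beta-catenin), with a difference of 0.10 (95% interval -0.08 to 0.28), and RUVBL2 (reptin), with 0.04 (95% interval -0.17 to 0.26). TFAP2A differed by 0.20, RUVBL1 by -0.11, NFKB1 by 0.09 and BCL3 by -0.20, the last with a range of -0.30 to -0.05 when an array was left out. Without fructose replicate 2 the values were 0.08 for TFAP2A, 0.06 for NFKB1, 0.04 for CTNNB1 and -0.02 for RUVBL2.

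Genes of exosome formation were measured for 16 of 19 listed. None passed, 10 were higher and 6 lower, and the median difference was 0.05. RAB27B, a GTPase that docks exosome-bearing endosomes at the plasma membrane, read 6.91, 7.20 and 7.23 in glucose and 7.71, 7.57 and 7.53 in fructose (log2; difference 0.49, SE 0.11). SDCBP (syntenin), an adaptor that loads exosomes, differed by 0.29 (SE 0.09), and the endosomal sorting protein HGS by 0.20. CHMP4C, a filament subunit of the ESCRT machinery that pinches off vesicles, differed by -0.34 (SE 0.09). The arrays did not overlap for 8 of the 16, 6 higher and 2 lower, against 11.4% and 8.81% of all probe sets. The exosome tetraspanins CD63, CD81 and CD9 differed by 0.01, -0.03 and 0.09 on the same arrays.

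Late endosome and lysosome genes, the compartment of CD63, were measured for 15 of 16 listed. None passed, 11 were higher and 4 lower, the median difference was 0.06, and 6 lay above and 3 below glucose without overlap, beside 11.4% and 8.81% of all probe sets. The protease CTSD read 9.59, 9.53 and 9.69 in glucose and 10.1, 10.1 and 10.0 in fructose (difference 0.50, SE 0.08), and the cholesterol exporter NPC1 differed by 0.43 (SE 0.10). The vesicle tethering subunit VPS18 differed by 0.28 and AP3S1, a subunit of the adaptor that sorts CD63 to lysosomes, by -0.18. The adaptor's other listed subunits did not all go the same way, with AP3D1 at 0.13, AP3B1 at -0.10 and AP3M1 at -0.10. Palmitoyl transferases, the enzyme family that attaches fatty acids to tetraspanins, were taken as a list of 7, all measured. The differences of these 7 lay between -0.18 and 0.07 with a median of -0.03. The members with the smallest p were ZDHHC20 (-0.18), ZDHHC2, which modifies CD9 and CD151 (-0.13), ZDHHC6 (-0.09) and ZDHHC7 (0.06, and 0.03 without fructose replicate 2).

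**Figure D4:**
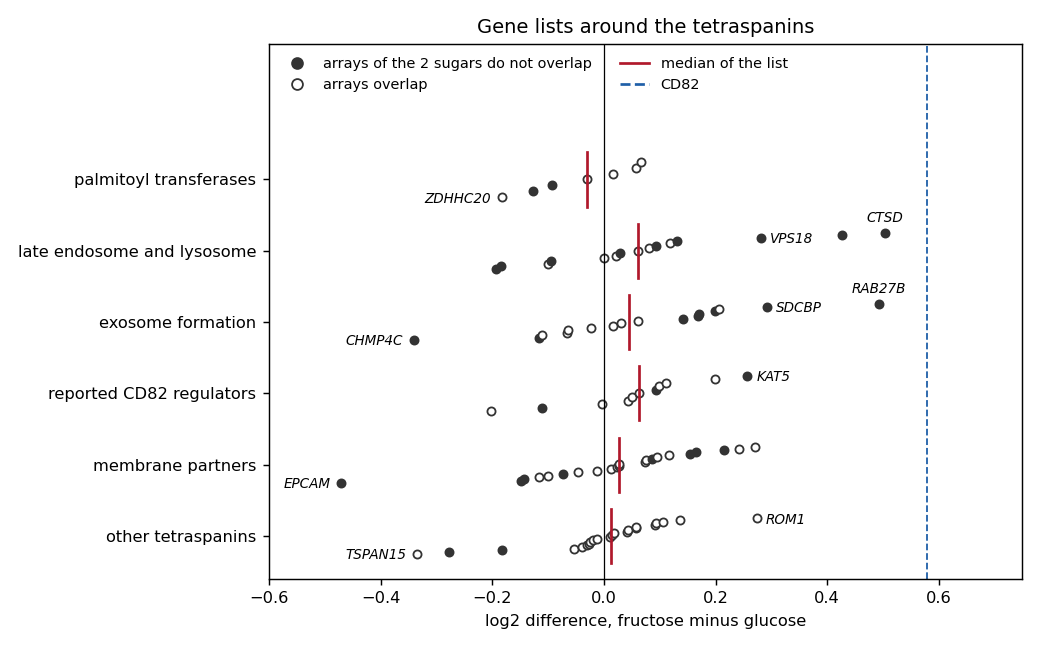
Log2 difference (fructose minus glucose) of each gene in 6 lists around the tetraspanins, with filled points where the arrays of the sugars do not overlap, red bars at the list medians (-0.03 to 0.06) and a dashed line at CD82 (0.58). Every listed gene lies to the left of CD82, with CTSD (0.50) and RAB27B (0.49) nearest.

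To see which genes shared the profile of CD82, each gene was centred on its own mean and compared over the 6 arrays, and the root mean square distance from CD82 was taken among 11220 genes brighter than the median probe set in at least 1 sugar. The nearest was EFEMP1, a fibulin of the extracellular matrix, at a distance of 0.043 log2 units (difference 0.62). ABHD14B followed at 0.044 (0.54), the drug exporter ABCG2 at 0.048 (0.53), the aldo-keto reductase AKR1C3 at 0.053 (0.54) and CTSD at 0.058 (0.50). In all but CTSD fructose replicate 2 was the highest of the 6 arrays, as it was for CD82. The ranking uses the same 6 arrays as the difference itself and is a description of likeness, with no test.

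**Figure D5:**
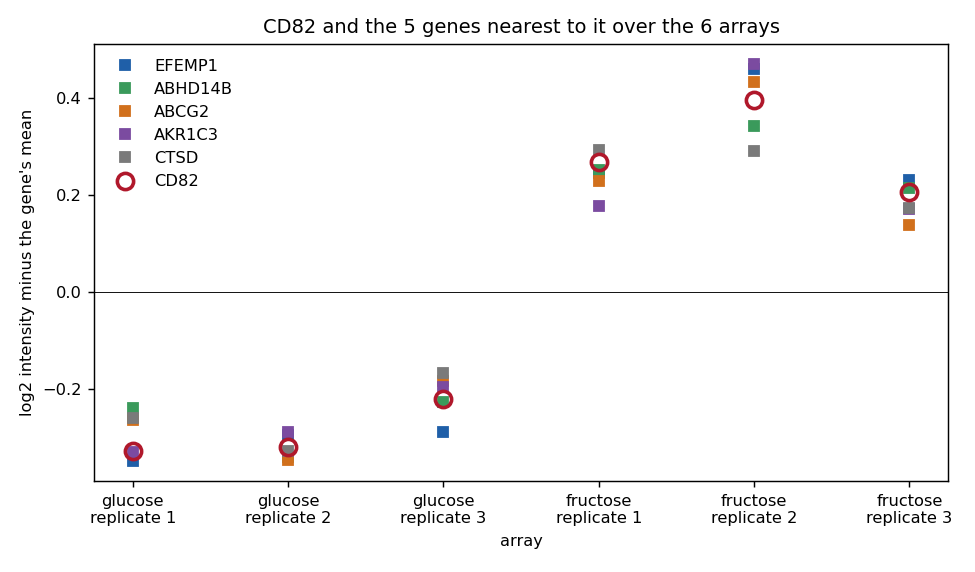
Log2 intensity minus the gene's own mean on each of the 6 arrays for CD82 (open red circles) and the 5 genes at the smallest distance from it (squares). All 6 genes are below their mean on the glucose arrays and above it on the fructose arrays, and their distances from CD82 run from 0.043 to 0.058.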

How the data were processed

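The authors deposited an intensity for each probe set on each array. Per the submitters' processing notes RMA, which corrects, normalizes and summarises probe signals, was applied. No version, program, genome build or filter is given in the sources used here. RMA commonly yields log2 values, but these intensities ran from 2.15 to 9287 and were read as linear, so log2 was taken without a pseudocount. The table had 32321 rows. The 4091 rows with identifiers below the lowest one paired with a gene were taken as controls, a reading of the numbering, and left out. Gene names came from the platform annotation: 19158 tested probe sets had 1 gene, 1388 several and 7684 none.

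Groups were compared with limma 3.58.1 in R 4.3.3 (lmFit, eBayes, two-sided), without covariates. P-values were adjusted over 28230 probe sets by Benjamini-Hochberg, a procedure tested on simulated data. The simulation had independent noise and 200 changed probe sets, with changes of 1.5-, 2- and 4-fold. Of these, 45.1%, 79.9% and 97.6% were called, in that order. Large changes that pass ease the cut-off for smaller ones, and in the data only 1 probe set passed. The share of 45.1% may thus overstate how often a 1.5-fold change would be called here. A gene that did not pass is therefore not shown to be unchanged. Precision is limited by the number of arrays, since arrays have no read depth. Replicate numbers were not treated as pairs. Brightness differs between probe sets for reasons other than RNA amount, so the members' levels were not ranked, and bright or dim is meant only against the median probe set.

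The members and lists were chosen with earlier results of these data known. Named genes are the 10 members, up to 4 genes per list with the smallest p, TXNIP, and the 5 genes nearest to CD82. Others (ADAM10, ITGA3, ITGA6, ITGB1, ITGB4, AP3B1, AP3D1, AP3M1, NFKB1, EXT2, TP53I11, TSPAN5, TSPAN10, TSPAN14, TSPAN17, TSPAN33, CTNNB1, RUVBL2, POLR2L, ALX4, TSPAN18 and the marker genes) were chosen after their values were seen. Some listed genes were not analysed here. Other settings were: leaving out each array, the replicate number as a block, repeated quantile normalization, median centring, keeping controls, testing bright probe sets alone, variances that follow intensity and are robust, weighting arrays, and no moderation.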

Additional observations from a re-analysis of the deposited data

How the results depend on the processing

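The difference of CD82 ran from 0.53 to 0.62 over the 13 refits. As its groups did not overlap, leaving out or weighting arrays could not turn its sign, so the shared direction is no support. The replicate block, kept controls, bright probe sets alone and the variance trend could not change a difference, so CD82 stayed at 0.58 there. In the other refits members' differences moved by under 1 SD between replicates, except for CD63 and CD81 after median centring (-0.02 and -0.06). The count of probe sets past the threshold was 1, but 299 among bright probe sets alone, 473 with the intensity trend and robust variances, and 0 with the unmoderated test. The first 2 settings called 1 member each, CD82, of 8 and 10 tested. Of the surrounding lists the first called 1 of 77 genes (CTSD), beside 2.08% of all probe sets tested. The second called 4 of 93 (CTSD, EPCAM, NPC1 and RAB27B), beside 1.68%. As the lists were chosen with earlier results of these data known, nothing is concluded from these counts either. No other setting called a member or a gene of those lists. An unadjusted p under 0.05 (limma) was found for 3694 probe sets, 13.1% of those tested, and for 1 of 10 members, CD82. As CD82 was picked with its difference in view, nothing is concluded from this. With an array left out, 29.0% to 33.3% of all probe sets had no overlap, and the members without overlap numbered 1 to 3. CD82 was among them in each case, which its lack of overlap on all arrays fixes in advance. The others were CD81 without glucose replicate 1, TSPAN1 without glucose replicate 3, TSPAN1 and TSPAN8 without fructose replicate 1, and CD9 without fructose replicate 3. With the replicate number as a block, 1 probe set and 0 members passed. Same-numbered arrays correlated at -0.03, -0.02 and -0.05 in their deviations from the group means, so the numbers showed no pairing. Averaging several probe sets of a gene could not be tried, as each member had 1. With 3 arrays a group, no exact permutation test of a single gene could go below 0.10. Dim probe sets such as CD37 and CD53 limit what can be said of those genes.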

Other observations

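In the current gene table the nearest protein-coding neighbours of CD82 on chromosome 11 are ALX4, a homeobox gene, on one side and the tetraspanin TSPAN18 on the other. ALX4 was lower in fructose by 0.38 on the log2 scale (a difference of -0.38, SE 0.06), from a mean of 5.52 over the 6 arrays. TSPAN18 was dim and differed by 0.09 (SE 0.09), and the next genes outward, EXT2 and TP53I11, by 0.03 and 0.04. None of these 4 passed the adjusted threshold over all probe sets (limma, smallest adjusted p = 0.14).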
